A study of Mus musculus with 65 samples.

Results

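The net change of RNA levels over a 6-day differentiation of mouse embryonic stem cells, wild type, was obtained by setting 2 libraries of day 6 against 2 libraries of day 0, all sequenced in 2019. These 4 samples, chosen by their labels, are 4 of the 65 samples of the series, which also holds 13 other RNA-seq samples and 48 ChIP-seq samples. Day 6 cells had been grown as embryoid bodies under constant rotation, with 10 µM all-trans retinoic acid and no leukaemia inhibitory factor (LIF), the cytokine that keeps mouse embryonic stem cells undifferentiated. Day 0 cells had been kept on gelatin in serum medium with LIF and had 0 µM retinoic acid. The other 2 libraries of 2019, from day 3 of the same treatment, entered the statistical fit and are shown as the midpoint. The chromatin values below come from wild-type cells at days 6 and 0, and a second wild-type series of 2020 has 2 libraries of day 6 and 1 library of day 0. The labels call the cells wild type and give no strain, and the knockout and K27A lines of the series were no part of this contrast. Loss of LIF, the move from dish to embryoid body and the retinoic acid were all applied together, so their effects cannot be told apart.

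In the pluripotent state, LIF acts through JAK kinases and STAT3 on a network of transcription factors centred on Oct4 (Pou5f1), Nanog and Sox2. Retinoic acid binds heterodimers of the receptors RAR and RXR, which sit on direct repeats of a short half-site, and in embryoid bodies it steers cells towards neural fates of hindbrain and spinal cord character, beside primitive endoderm and mesodermal cells. Polycomb repressive complex 2 methylates lysine 27 of histone H3, and the trimethylated form (H3K27me3) covers many developmental genes that are silent in stem cells.

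The 4 libraries detected 15915 to 16898 genes. Day 6 had 12709920 and 10172721 gene counts, against 6965704 and 11976763 at day 0. Reads outside annotated genes made up 34.33 to 43.29% of these libraries, against 13.08 to 13.63% in the 3 wild-type libraries of 2020. The 25 markers of pluripotent cells summed to 616.8 and 638.5 counts per 1000000 (CPM) at day 6 and to 12300.0 and 11544 CPM at day 0, which matches the day 0 label. Because the RNA is from whole cultures, fewer cells of a type and less RNA per cell cannot be told apart. Genes that most cells use, such as Smarca4 and Eno1, were at or near 0 in all 6 libraries of 2019, so a level near 0 throughout is not read as absence of expression.

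Of 13593 genes tested, 5627 were called higher at day 6 (41.4%) and 4971 lower (36.6%), by edgeR's quasi-likelihood test with a Benjamini-Hochberg adjusted p below 0.05. With 78% of all genes called, a call alone says little about a gene, and sizes are given throughout. Counts of list members below are to be read beside these shares of 41.4% and 36.6%. Against a 2-fold change, 3135 genes passed as higher (23.1%) and 1860 as lower (13.7%). The 2 libraries of day 6 lay above both of day 0 for 46.5% of tested genes and below both for 41.2%. The distribution was lopsided at its ends: 1029 genes were over 16-fold higher at day 6 and 237 were over 16-fold lower, while the median log2 change of all tested genes was 0.09. Values per library are CPM scaled by library, log2 changes are day 6 over day 0 with an approximate standard error (SE), and levels are not corrected for transcript length. The labels do not state how the duplicates were made, so each p-value measures the spread between these samples, which may be technical. Between duplicates, the chi-square per degree of freedom against equal composition was 8.32 at day 0, 2.30 at day 3 and 2.67 at day 6. The fit takes 1 spread per gene over these 3 days, so the error at day 0 may be understated.

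The genes of retinoic acid metabolism were among the largest gains. The promoters of Cyp26a1 and Rarb are shown because both hold the direct repeat that RAR and RXR bind. They are the 150 bases before a RefSeq start (GRCm38.p6), Cyp26a1 at chr19:37697658-37697807 on the + strand and Rarb at chr14:16575477-16575626 on the - strand, with the repeat of half-sites 5 bases apart in capitals.
Cyp26a1: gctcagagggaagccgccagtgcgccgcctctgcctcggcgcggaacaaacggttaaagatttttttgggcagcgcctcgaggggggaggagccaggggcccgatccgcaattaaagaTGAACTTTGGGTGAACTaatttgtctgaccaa
Rarb: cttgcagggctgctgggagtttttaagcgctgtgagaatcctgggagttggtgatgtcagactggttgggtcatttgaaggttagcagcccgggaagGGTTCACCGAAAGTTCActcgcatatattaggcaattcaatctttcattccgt

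Cyp26a1, which degrades retinoic acid, had 763 and 729.7 CPM at day 6, against 1.93 and 0.75 CPM at day 0, a log2 change of 9.28 ± 0.16 (SE, n = 2 each). Rarb, a retinoic acid receptor, had 174 and 162 CPM at day 6, against 0.321 and 0.281 CPM at day 0 (log2 9.10). The repeat in Cyp26a1 lies 32 to 16 bases before the start, read on the opposite strand, and that in Rarb 53 to 37 bases before the start. The half-site searched was AGGTCA or its variant AGTTCA or GGGTCA or GGTTCA, on both strands, in windows from 250 bases before to 50 after a start, and a match is a description, not evidence of binding. Such a repeat was found in 31 of 27025 promoter genes (0.115%), in 5 of 4188 genes called higher (0.119%) and in 2 of 3777 called lower (0.053%). Among all tested genes 7 of 10263 had one (0.0682%), and 3 of the 694 genes over 16-fold higher had one (0.432%).

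Cyp26b1, the second enzyme that breaks down retinoic acid, had 629.9 and 593 CPM at day 6, against 1.13 and 0.469 CPM at day 0 (log2 9.72 ± 0.15). Stra6, the receptor that takes up retinol from its carrier protein, had 211 and 226 CPM at day 6, against 1.29 and 0.375 CPM at day 0 (log2 8.24). The largest gains were ranked among called genes with no overlap of the days. They needed at least 10 counts over the day 0 libraries and a mean of at least 50 CPM at day 6. Igfbp5, a secreted binder of insulin-like growth factors, came first. It had 609.7 and 663 CPM at day 6, against 0.964 and 0.375 CPM at day 0 (log2 10.04 ± 0.18, edgeR adjusted p = 3.2e-13). For each of these genes both day 6 libraries lie far above both day 0 libraries, and the day 6 duplicates lie close together.

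The other genes among the 12 largest gains were Hoxb9, a posterior HOX factor (log2 8.59), Zfp703, a zinc finger factor (8.54), Pdgfra, the receptor of platelet-derived growth factor A (8.16), the forkhead factor Foxc2 (7.84) and Nfia, a factor of gliogenesis (7.60). Cxcl12, a chemokine (7.51), Dchs1, a giant cadherin of planar polarity (7.51), and Tshz1, a trunk patterning factor (7.38), completed them. Further genes had no count in either day 0 library, so their changes are lower bounds against a floor of 3 counts over the group. Dach1, a transcriptional cofactor of the eye and limb, had 155 and 153 CPM at day 6 and was at least 869-fold higher. S100g, a calcium-binding protein, was at least 790-fold higher (789.8), the spinal factor Lhx1 at least 711-fold, the proneural factor Neurog2 at least 531-fold and the interneuron factor Dbx1 at least 458-fold.

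Under the same minimums, with the days exchanged, the largest loss was that of Fgf4, the growth factor through which stem cells signal to themselves, which had 0.517 and 1.65 CPM at day 6, against 269.7 and 251 CPM at day 0 (log2 -7.97 ± 0.19). Trh, the precursor of thyrotropin-releasing hormone, had 2.29 and 2.74 CPM at day 6, against 512 and 629.7 CPM at day 0 (log2 -7.83). Tdgf1, a co-receptor for Nodal, had 5.39 and 5.94 CPM at day 6, against 869 and 902 CPM at day 0 (log2 -7.29). Lack of overlap between the days was part of the rule that chose them. Tcl1 (-7.83) and Utf1 (-7.44), both stem cell genes, Ooep, an oocyte gene (-7.62), Nphs1, better known from the kidney filter (-7.49), Inhbb, an activin subunit (-7.02), and Slc7a3, a cationic amino acid transporter (-7.02), were of similar size. Gm7325 (-6.75), Hsd17b14, a steroid dehydrogenase (-6.73), and Spry4, an inhibitor of growth factor signalling (-6.72), completed the 12. Of genes with no count at day 6, Chrna9, a subunit of an acetylcholine receptor, was at least 138-fold lower, Glod5 at least 73.7-fold, Nphs1os at least 65.3-fold, Nkx6-3 at least 35.0-fold and 1700097N02Rik at least 33.7-fold. Nphs1os carries the name of an opposite-strand transcript of Nphs1, and since no source says how strand was treated in the counting, reads of this pair cannot be told apart.

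**Figure D1:**
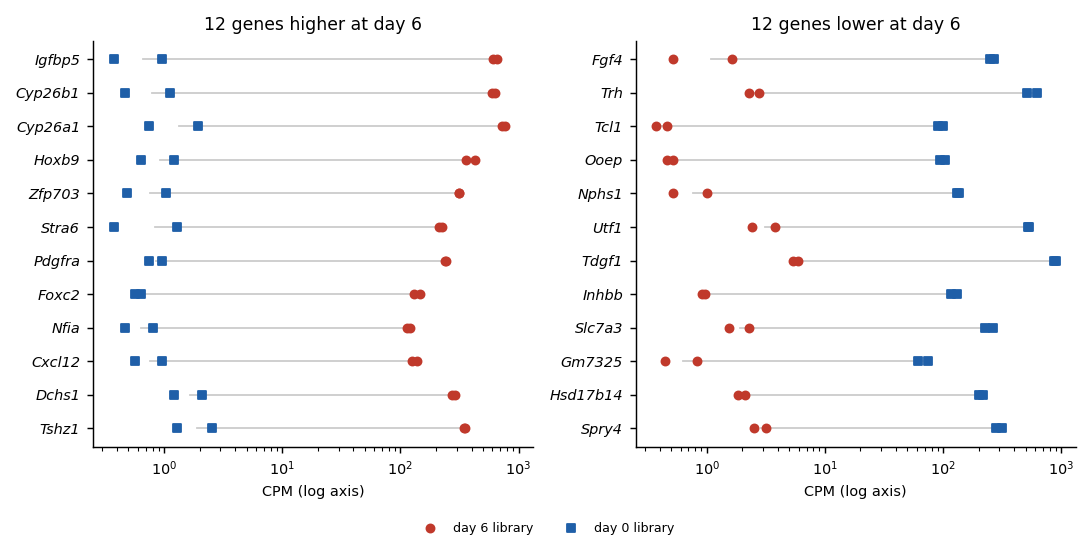
Level in each library of the 12 genes with the largest log2 gain (left) and the 12 with the largest log2 loss (right), in CPM on a log axis. Circles are the 2 day 6 libraries, squares the 2 day 0 libraries, and grey lines join the group means. The 24 genes were chosen among those where no day 6 library overlaps a day 0 library. Igfbp5 and Fgf4 head the panels.

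In reads rather than ratios, the 8 largest gains were of 4 imprinted genes and of 4 genes of collagen and matrix. H19, an imprinted non-coding RNA, had 2113 and 2295 CPM at day 6, against 37.3 and 45.9 CPM at day 0. Igf2, its imprinted neighbour and a growth factor, had 1473 and 1578 CPM at day 6, against 8.36 and 10.5 CPM at day 0 (log2 7.30). The imprinted genes Peg3 (log2 3.81) and Peg10 (2.48) gained reads as well. Col4a1, a basement membrane collagen, had 2156 and 1977 CPM at day 6, against 27.3 and 22.3 CPM at day 0 (log2 6.40), and its partner Col4a2 changed by 6.77. Sparc, a matrix glycoprotein (3.14), and Serpinh1, the collagen chaperone (3.47), were the other 2 of the 8 largest gains. The largest loss of reads was in Hsp90ab1, a heat shock chaperone, which had 4450.2 and 4694 CPM at day 6, against 10712 and 9808 CPM at day 0 (log2 -1.17). Rn45s, the precursor of ribosomal RNA (-2.50), Hsp90aa1 (-2.20), the nucleolar proteins Ncl (-1.95) and Npm1 (-1.68), the pyruvate kinase gene Pkm (-1.61), actin Actb (-1.18) and the elongation factor Eef1a1 (-0.57) were the others of the 8 largest. Ribosomal RNA is not polyadenylated, and what part of the Rn45s reads in poly(A) libraries comes from incomplete removal was not tested.

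All 25 tested members of the pluripotent list were lower at day 6, with a median log2 change of -5.08. Pou5f1 had 16.8 and 20.8 CPM at day 6, against 1876 and 1344 CPM at day 0 (log2 -6.43 ± 0.16). Nanog had 11.4 and 14 CPM at day 6, against 408 and 485 CPM at day 0 (log2 -5.15). Sox2, which neural progenitors also use, kept more of its level, with 131 and 115 CPM at day 6 and 955 and 973 CPM at day 0 (log2 -2.97). The smallest losses in the list were those of Alpl, alkaline phosphatase (-0.48), and the factor Tbx3 (-0.67). The promoter of Nanog is shown for the composite site where Oct4 and Sox2 bind side by side. It is the 150 bases before one of its 2 RefSeq starts (GRCm38.p6, chr6:122707339-122707488, + strand), with the match in capitals, 75 to 64 bases before the start.
Nanog: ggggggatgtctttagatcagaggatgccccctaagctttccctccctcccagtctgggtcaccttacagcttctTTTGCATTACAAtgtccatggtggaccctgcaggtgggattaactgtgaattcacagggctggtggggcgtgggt

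That motif, searched on both strands, was found in 10 of 27025 promoter genes (0.037%), in 2 of 3777 genes called lower (0.053%) and in 4 of 4188 called higher (0.0955%), beside 6 of 10263 tested genes (0.0585%). Of the 157 genes over 16-fold lower, 2 had it (1.27%), and of the 694 over 16-fold higher, 1 (0.144%).

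Of the LIF and STAT3 list, 12 of 17 tested genes were lower at day 6 and 3 were higher (median log2 -2.03). Tfcp2l1, a STAT3 target of naive stem cells, had 16.7 and 18.2 CPM at day 6, against 512 and 567 CPM at day 0 (log2 -4.95). The targets Klf5 (-3.26), Junb (-2.82), Pim3 (-2.71), Socs2 (-2.39) and Socs3, a feedback inhibitor of the pathway (-2.14), fell with it. Parts of the signalling chain did the opposite or moved little. Jak2, a receptor-bound kinase, had 77.2 and 79.5 CPM at day 6, against 13.7 and 13 CPM at day 0 (log2 2.56), and Il6st, the shared receptor subunit gp130, rose by 0.78. Stat3 itself had 135 and 143 CPM at day 6, against 178 and 177 CPM at day 0 (log2 -0.36).

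All 18 tested glycolysis genes were lower at day 6 (median log2 -1.41), and their summed level was 4814 and 5058 CPM at day 6, against 13712 and 14350.1 CPM at day 0. Pfkp, the platelet form of phosphofructokinase, had 13 and 15.7 CPM at day 6, against 327 and 307 CPM at day 0 (log2 -4.47 ± 0.10). Hk2, a hexokinase (-2.60), the aldolase Aldoc (-2.30), Pdk1, which holds pyruvate back from the mitochondrion (-2.29), and Ldha, lactate dehydrogenase A (-2.17), came next. Of 54 tested nuclear genes for respiratory chain subunits, 50 were lower and none was called higher, with a smaller median of -0.79. Against a 2-fold change, 10 of the 18 glycolysis genes but 9 of the 54 respiratory chain genes passed. Atp5b, the catalytic subunit of ATP synthase, had 1309 and 1291 CPM at day 6, against 3298 and 3062 CPM at day 0 (log2 -1.29).

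Of 19 tested genes of serine, threonine and one-carbon metabolism, 18 were lower (median log2 -1.58). Tdh, threonine dehydrogenase, on which mouse stem cells depend, had 44.1 and 42.9 CPM at day 6, against 651 and 696 CPM at day 0 (log2 -3.95). The mitochondrial folate enzyme Mthfd2 (-2.67) and the glycine cleavage enzyme Gldc (-2.64) followed. All 38 tested genes of ribosome biogenesis were lower (median -1.59, range -0.68 for Polr1c to -2.47 for Rrp9), 32 of them also against a 2-fold change. Their summed level was 6502 and 6488 CPM at day 6 and 21802 and 19989 CPM at day 0. Cholesterol synthesis fell less: 17 of 23 genes were lower and 2 higher (median -0.55), with 2 lower against a 2-fold change. Idi1, an isoprenoid enzyme, changed by -1.28, whereas Hsd17b7 rose by 1.29.

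Among cyclins, kinases and their drivers, 15 of 23 were lower and 6 higher (median log2 -0.54), and the D cyclins split. Ccnd2 had 780.2 and 684 CPM at day 6, against 37 and 33.4 CPM at day 0 (log2 4.39 ± 0.11). Ccnd3 had 139.6 and 152 CPM at day 6, against 291 and 305 CPM at day 0 (log2 -1.03). Ccne1, the cyclin of entry into S phase that is high in stem cells, had 55.4 and 65.3 CPM at day 6, against 391 and 408 CPM at day 0 (log2 -2.73). The Myc family split as well, with Mycl higher (2.14) and Mycn (-1.67) and Myc (-2.04) lower. Of 17 inhibitors and exit genes, 13 were higher and 4 lower (median 0.72). Gadd45g, a growth arrest gene, had 45.5 and 43.2 CPM at day 6, against 1.93 and 1.5 CPM at day 0 (log2 4.73), and Cdkn2c, an inhibitor of CDK4 and CDK6, changed by 3.47. E2f4, the repressive E2F of resting cells, was lower (-1.33). Of 19 apoptosis regulators 8 were higher (42.1%) and 8 lower (42.1%), shares near those of all tested genes (41.4% and 36.6%). The survival gene Bcl2 (log2 4.33), the caspase gene Casp8 (2.73) and the BH3-only gene Bcl2l11 (1.22) were higher. Other BH3-only genes, Pmaip1 (-2.75), Hrk (-1.92) and Bid (-1.61), were lower.

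Cadherins other than Cdh1 and factors of the epithelial to mesenchymal transition rose: 13 of 14 were higher, with a median log2 change of 4.12. Cdh1, epithelial cadherin, listed with the junctions, had 154 and 165 CPM at day 6, against 906 and 936 CPM at day 0 (log2 -2.53). Cdh2, neural cadherin, had 207 and 211 CPM at day 6, against 9.64 and 8.72 CPM at day 0 (log2 4.52). Cdh11, a cadherin of mesenchyme, had 271 and 289 CPM at day 6, against 0.482 and 0.0937 CPM at day 0 (log2 10.14). At day 6 Cdh1 was still present beside both other cadherins. The transcription factors Snai2 (6.29), Snai1 (3.71), Twist1 (3.61) and Zeb1 (2.55) rose, and fibronectin, Fn1, was the one member that fell (-1.23). Of 19 epithelial junction genes, 11 were lower and 4 higher (median -0.90). Pkp2 (-3.21) and Perp (-3.20), both of desmosomes, fell most, while desmoplakin, Dsp, rose by 1.91.

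Most markers of extraembryonic endoderm and of mesenchyme were higher at day 6, and those of muscle and surface ectoderm moved both ways. Of the 18 extraembryonic endoderm markers, 17 were higher (median log2 6.59, or 5.86 with 0-count genes at their bound). Their sum was 7033 and 6462 CPM at day 6 and 529 and 486 CPM at day 0, and 2 of the 18 had no count at day 0. Most of these reads were Col4a1, Col4a2, Sparc, Lama1 and Lamb1, which other cell types also make. More specific members were high too: Gata6, a determinant of primitive endoderm, had 104 and 112 CPM at day 6, against 1.13 and 0.375 CPM at day 0 (log2 7.35). Sox17 (8.53) and the endocytic receptor Cubn (7.06) had similar changes, and Gata4 changed by 4.84. The secreted proteins Ttr and Afp stayed low, at 16.3 and 16.7 CPM and at 5.76 and 6.22 CPM at day 6, with 1 count and no count at day 0.

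Of the 15 mesenchyme markers 13 were higher (median log2 5.49, or 5.02 with 0-count genes at their bound), and their sum was 1239 and 1459 CPM at day 6 and 74.1 and 68.3 CPM at day 0. Col3a1, a fibrillar collagen, had 547 and 632 CPM at day 6 and 3 counts over both day 0 libraries, a ratio of 3293 (counting interval 1127 to 15972). Col1a1 had 289.9 and 377 CPM at day 6, against 5.3 and 2.91 CPM at day 0 (log2 6.44), and the mesenchymal factor Prrx1 had 14.9 and 16.6 CPM at day 6 and 3 counts in all at day 0. Tagln, a smooth muscle gene on the list, was lower (-1.03). Muscle markers gave a mixed picture, with 6 of 21 higher (28.6%) and 7 lower (33.3%), beside 41.4% and 36.6% of all tested genes. Hand2 and Tbx5, both heart field factors, had 14.9 and 10.3 CPM and 9.6 and 9.69 CPM at day 6. Each had 1 count at day 0, while titin, Ttn, fell (-4.30). Of 9 surface ectoderm markers 4 were higher (44.4%) and 5 lower (55.6%). The simple epithelial keratins Krt8 (2.63), Krt18 (2.66) and Krt19 (3.11) rose, and the factors Grhl2, Grhl3 (-4.34) and Tfap2c (-2.72) fell. The part that each cell type had in the changes of other groups was not tested.

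In each of 4 signalling pathways, more genes were higher than lower at day 6, which also held for all tested genes (41.4% and 36.6%). The shares higher were 71.4% (Notch), 70.6% (Hedgehog), 79.5% (BMP and TGF-beta) and 72.2% (Hippo). Those lower were 17.9%, 11.8%, 17.9% and 22.2%. In the Notch pathway 20 of 28 genes were higher and 5 lower (median log2 1.18), the 5 becoming 3 without replicate 1 of day 6. Hes5, a Notch target of neural progenitors, had 77.9 and 68.8 CPM at day 6, against 0 and 0.937 CPM at day 0 (log2 6.94). The target Heyl had no count at day 0 and was at least 149-fold higher, the ligand Dll1 rose by 3.34 and the receptor Notch3 by 1.49, while Notch4 fell (-3.37). Of 17 Hedgehog genes, 12 were higher and 2 lower (median 2.08). The ligand Shh had 8.86 and 10.6 CPM at day 6 and no count at day 0, and was at least 54.8-fold higher. The ligand Ihh (7.02), the co-receptors Gas1 (5.87) and Boc (4.24) and the transducer Smo (2.08) rose. Gli1, a target gene of the pathway, had 106 and 112 CPM at day 6, against 101 and 124 CPM at day 0 (log2 -0.06, edgeR adjusted p = 0.59).

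Of 39 BMP and TGF-beta genes 31 were higher and 7 lower (median log2 1.91). The ligand Tgfb3 had 102 and 120.0 CPM at day 6, against 0.161 and 0.281 CPM at day 0 (log2 8.81). Gdf11, which sets axial position (5.43), and Id3, a target of BMP (4.37), rose. The Nodal-like ligand Gdf3 (-6.20), the activin subunit Inhbb and the inhibitor Smad7 (-1.77) fell. In the Hippo list 13 of 18 were higher and 4 lower (median 0.72), led by the kinase receptor Axl (3.51) and the scaffold Amot (3.32). Tead4 (-2.83) and the YAP target Ctgf (-2.44) fell, whereas Tead1 stayed at 286 and 262 CPM at day 6 beside 274 and 293 CPM at day 0.

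Regional factors of the spinal cord and hindbrain had the highest median of the neural lists. Of 29 tested interneuron factors, 24 were higher and 1 lower (median log2 3.85, or 3.69 with 0-count genes at their bound). Lhx1, of several interneuron classes, had 132 and 120.4 CPM at day 6 and no count at day 0. Prdm12, a factor of sensory and V1 neurons, had 33.9 and 33.2 CPM at day 6 and was at least 189-fold higher. Pax2, of inhibitory interneurons, had 49 and 41 CPM at day 6, against 0.482 and 0.187 CPM at day 0 (log2 7.20). Pou4f2 went the other way, with 0.222 and 0.0914 CPM at day 6, against 15.9 and 16.6 CPM at day 0 (log2 -6.55). Of 15 motor neuron genes 10 were higher, at lower levels. Nkx6-1, of ventral progenitors, had 16.6 and 14 CPM at day 6 and was at least 86.2-fold higher, Olig2 had 9.23 and 8.05 CPM at day 6 and 1 count at day 0, and Mnx1 rose by 4.61. Of the 15, 4 were lower, or 2 without replicate 1 of day 0 or without either day 6 replicate, among them the neurofilament-like Prph (-2.43).

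Of 27 forebrain and midbrain factors listed, 16 were tested, of which 10 were higher and 3 lower, and most were low. The median log2 change of the 16 was 2.98. In the fit of 17 libraries, where 22 were tested, the 2019 median was 1.98. Otx2, which marks forebrain and midbrain and is also on in stem cells leaving the naive state, had 0.738 and 1.01 CPM at day 6, against 23.8 and 24.7 CPM at day 0 (log2 -4.80). Sp8 (5.22) and En1, which spinal V1 neurons also use (4.22), reached 51.2 and 45.7 CPM and 12.7 and 12.3 CPM at day 6. Summed over the lists, interneuron factors stood at 839.5 and 757 CPM at day 6 and 47.3 and 52.6 CPM at day 0.

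Of the SOX factors 12 of 18 were higher and 3 lower (median log2 2.17). Sox11, of immature neurons, had 821 and 759 CPM at day 6, against 54.6 and 51.8 CPM at day 0 (log2 3.90). Sox9, of glial progenitors and cartilage, had 107 and 106 CPM at day 6, against 0.321 and 0.187 CPM at day 0 (log2 8.75). Sox2 and Sox15 (-3.55) fell. Of 12 POU factors 6 were higher (50%) and 5 lower (41.7%), beside 41.4% and 36.6% of all tested genes. Pou3f2, a neural class III factor, had 169.5 and 142 CPM at day 6 and 2 counts in all at day 0, a ratio of 1326 (counting interval 367 to 10955), and Pou3f3 (8.06) and Pou3f4 (5.16) rose with it as Pou5f1 fell. Of 14 KLF factors 8 were lower and 2 higher, the 2 becoming 0 without replicate 1 of day 6. Klf2 (-4.80), Klf5 (-3.26), Klf15 (-2.51) and Klf9 (-2.43) fell most. Of 29 nuclear receptors other than RAR and RXR, 15 were higher (51.7%) and 7 lower (24.1%), with a median of 1.09. Nr2f2, an orphan receptor induced by retinoic acid, had 352 and 374 CPM at day 6, against 0.643 and 0.187 CPM at day 0 (log2 9.95), and Nr2f1 was at least 131-fold higher. Nr0b1 (-6.52), Esrrb (-5.32) and Nr5a2 (-3.76), all of the stem cell network, fell, and so did the immediate early gene Nr4a1 (-3.84).

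Genes of mature neuronal function were higher but mostly low. Of 26 synaptic vesicle genes, 19 were higher and none lower by edgeR (median log2 2.24); with DESeq2 size factors, or without replicate 1 of day 0, 2 were called lower. Rab3c, a vesicle GTPase, had 62.1 and 49.6 CPM at day 6 and 2 counts in all at day 0, a ratio of 477 (counting interval 132 to 3944). Snap25, Syt1 and Stx1a, central parts of the same machinery, were at or near 0 in every 2019 library. Of 19 postsynaptic and adhesion genes 15 were higher and 2 lower, with 1 lower without replicate 2 of day 0 or replicate 1 of day 6. Cntn2, an axonal adhesion molecule, had 140.4 and 117 CPM at day 6, against 13 and 12.3 CPM at day 0 (log2 3.36). Dlg4 (2.23) and Nlgn2 (2.22) rose and Camk2b fell (-1.19).

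Of 15 transmitter genes 11 were higher and none lower. Those of inhibitory neurons were low at day 6: Gad2, which makes GABA, had 12.4 and 10.8 CPM and Slc32a1, which loads it into vesicles, 12.8 and 10.6 CPM, with 1 and 3 counts in all at day 0. Slc6a5, the glycine transporter, had 9.3 and 5.67 CPM at day 6 and 1 count at day 0. Of 13 neuropeptide precursors 7 were higher (53.8%) and 4 lower (30.8%), beside 41.4% and 36.6% of all tested genes. Sst, somatostatin, had no count at day 0 and was at least 229.8-fold higher, and Scg3 rose (5.45), whereas Trh, Pdyn (-3.96) and Calca (-3.95) fell. Of the neurotrophin and GDNF list 8 of 14 were higher and 3 lower, with the receptors Gfra1 (5.05) and Ntrk2 (3.77) up. Ligands went both ways. Gdnf had no count at day 0 and was at least 12.9-fold higher. Ntf3 had 5.98 and 7.68 CPM at day 6 and 2 counts in all at day 0. The ligands Artn, Nrtn (-1.72) and Ntf5 (-1.67) fell. Of 16 glial genes 10 were higher and 3 lower (Gfap, Cnp and Glul). Besides Sox9, Pdgfra and Nfia the higher ones included Slc1a2, a glutamate transporter, with 78.7 and 53.4 CPM at day 6, against 1.13 and 0 CPM at day 0 (log2 7.28), whereas Gfap, of mature astrocytes, had 0.148 and 0.183 CPM at day 6. Of 14 ganglioside and polysialic acid enzymes 9 were higher and none lower. St8sia2, which puts polysialic acid on neural adhesion molecules, had 68.2 and 63.5 CPM at day 6 and 2 counts in all at day 0, a ratio of 558 (counting interval 154 to 4614).

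Of 26 BAF subunits 16 were higher and 6 lower (median log2 0.40). Smarca2, the ATPase BRM, had 54.3 and 54.6 CPM at day 6, against 1.29 and 0.843 CPM at day 0 (log2 5.74). Actl6a, the progenitor form of an actin-like subunit, had 142 and 143 CPM at day 6, against 339 and 349 CPM at day 0 (log2 -1.27). Its neuronal paralogue Actl6b had 6.57 and 4.66 CPM at day 6 and 2 counts in all at day 0, still far below Actl6a in reads. Smarcc2 rose by 2.59 while Smarcc1 was at 557 and 568 CPM at day 6 and 528 and 617 CPM at day 0. Among deacetylases and NuRD subunits 9 of 23 were higher (39.1%) and 8 lower (34.8%), shares near those of all tested genes (median 0.08). Chd3, a NuRD remodeller, had 580.0 and 599.6 CPM at day 6, against 33.8 and 38.1 CPM at day 0 (log2 4.02), and its paralogue Chd5 was lower (-2.48). Of 16 linker histones and variants 6 were higher (37.5%) and 8 lower (50%), beside 41.4% and 36.6% of all tested genes. The linker H1f0 (1.37) and macroH2A2, H2afy2 (1.92), rose and H2afx (-1.38), H2afz (-1.36) and H2afj (-1.98) fell. H3f3a, one of the genes of histone H3.3, had 147 and 155 CPM at day 6, against 148 and 177 CPM at day 0 (log2 -0.12, edgeR adjusted p = 0.22), and became called lower (-0.24) without replicate 1 of day 0. Of 14 lamina genes 4 were higher (28.6%) and 7 lower (50%). The lamin B receptor Lbr (-1.46), Lmna (-1.24) and Lmnb1 (-0.88) were down and the linker Syne2 was up (1.39).

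Of 26 splicing regulators 18 were higher and 5 lower (median log2 1.42), the 5 becoming 3 without replicate 2 of day 0. Ptbp1, the repressor of neuronal exons, had 596 and 597 CPM at day 6, against 875 and 1164 CPM at day 0 (log2 -0.77). Its neural paralogue Ptbp2 had 257 and 230.1 CPM at day 6, against 68.1 and 73.1 CPM at day 0 (log2 1.78). Srrm4, which promotes neuronal microexons, had 65.7 and 51.2 CPM at day 6, against 2.09 and 2.72 CPM at day 0 (log2 4.56), and Nova1 (3.55) and Elavl3 (2.80) rose. In the list of microRNA processing and long non-coding RNAs 14 of 28 were higher (50%) and 10 lower (35.7%). The shares of all tested genes were 41.4% and 36.6%. Miat had 339 and 216 CPM at day 6, against 3.38 and 2.44 CPM at day 0 (log2 6.63), Lncenc1, a stem cell RNA, fell (-3.85) and so did Trim71, a target of let-7 (-2.61). Dicer1 and Ago2 stayed uncalled.

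**Figure D2:**
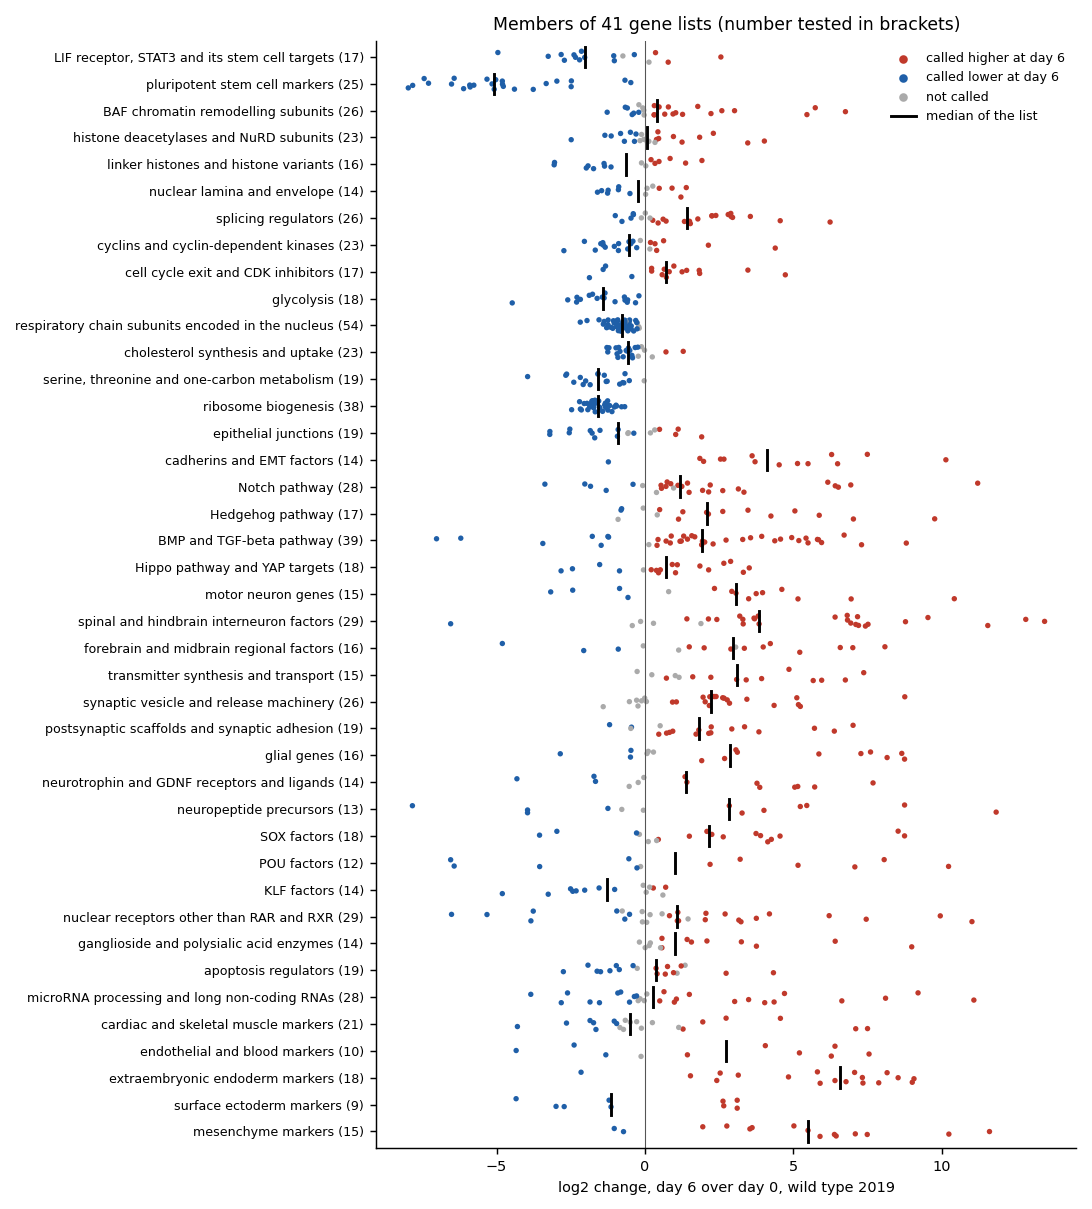
Log2 change, day 6 over day 0, of every tested member of 41 gene lists, with 1 point per gene, coloured by its edgeR call, and a black bar at each list's median; genes with no count on one day stand at fitted values that are no bound. Pluripotent, glycolysis, serine and ribosome biogenesis lists lie left of 0, with medians of -5.08, -1.41, -1.58 and -1.59, and extraembryonic endoderm and mesenchyme lists lie farthest right, at 6.59 and 5.49.

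The net change hides an excursion at day 3 for some genes. By a rule chosen after the values were seen (day 3 at least 4-fold beyond both ends, at least 10 CPM at the higher level and no overlap), 54 tested genes peaked at day 3 and 25 dipped there. Of the 54, 33 were also called higher at day 6 than at day 0, 9 lower and 12 not called. Kdr, the receptor of vascular endothelial growth factor, had 1.29 and 1.22 CPM at day 0, 214 and 215 CPM at day 3 and 19.6 and 22.3 CPM at day 6. Cd34 had 3.05 and 3.19 CPM at day 0, 65.4 and 64.8 CPM at day 3 and 2.66 and 3.11 CPM at day 6, so that its day 6 over day 0 change was -0.13. Tie1, Sox18, Cldn5, Plvap, Cdh5 and Emcn were also among the 54. The 13 endothelial and blood markers summed to 94.0 and 114 CPM at day 0, 619 and 626 CPM at day 3 and 127 and 130.3 CPM at day 6, and Pecam1, which stem cells also express, was lower at day 6 (-4.34).

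Among the dips, Ccnd1, cyclin D1, had 236 and 237 CPM at day 0, 16.2 and 19.1 CPM at day 3 and 283 and 256 CPM at day 6, a net log2 change of 0.19. Tubb3, a tubulin used as a neuronal marker, had 159 and 170.0 CPM at day 0, 9.39 and 16.1 CPM at day 3 and 400.3 and 365 CPM at day 6. Stmn2, a microtubule regulator of axons, had 223 and 255 CPM at day 0, 9.47 and 11.7 CPM at day 3 and 90.5 and 71.1 CPM at day 6, so that it was lower at day 6 (-1.57). Of the 25 dipping genes 15 were called higher at day 6 than at day 0, 6 lower and 4 not called. Ina, Stmn3, Elavl3, Celf4, Unc13a, Ncan and Neurod1, all genes of neurons, were in this group, with 128 and 110.4 CPM of Ina at day 0. RNA of these neuronal genes was present in both day 0 libraries, which the rule required of every dipping gene.

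**Figure D3:**
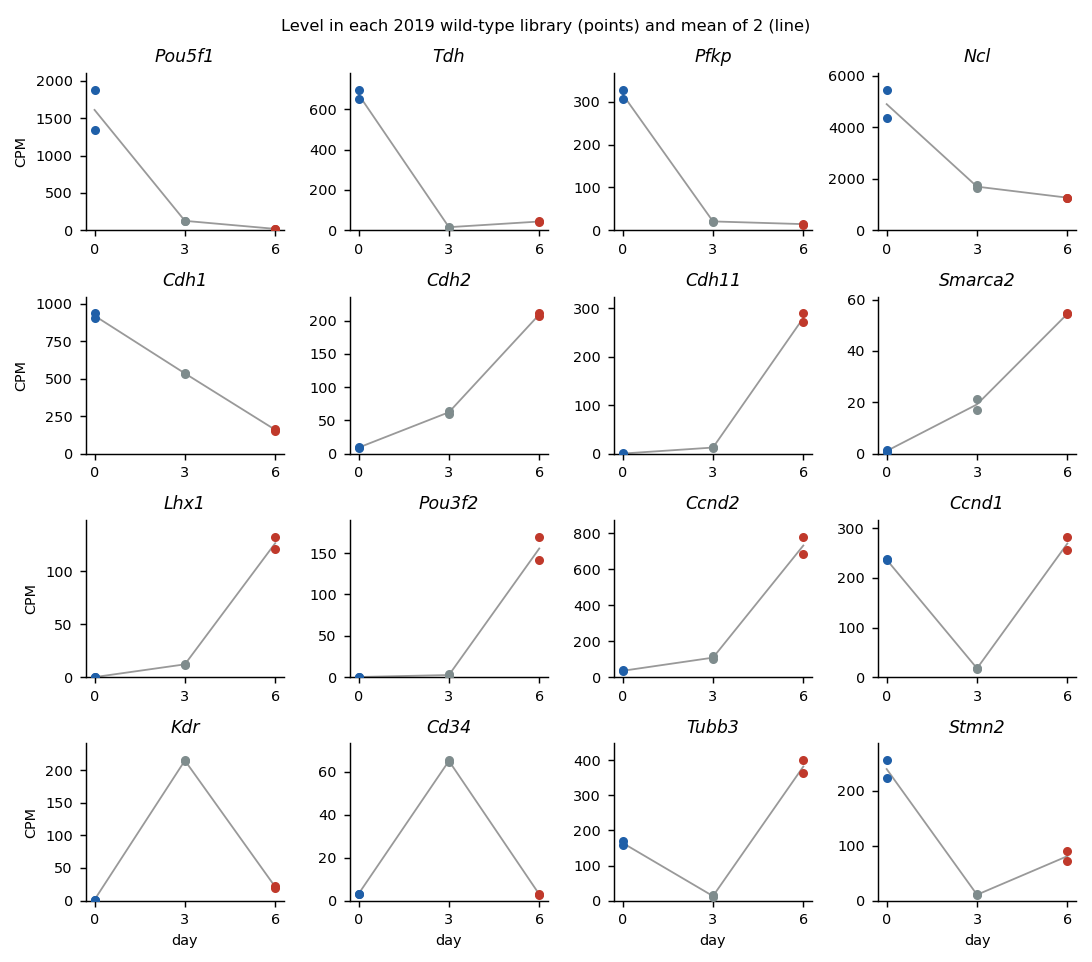
Level of 16 genes at days 0, 3 and 6, in CPM on linear axes from 0, with 1 point per library and a line through the means of 2. Pou5f1, Tdh, Pfkp and Ncl had most of their loss by day 3, Cdh11, Lhx1 and Pou3f2 gained mainly after day 3, Kdr and Cd34 peaked at day 3 with 214 and 65.4 CPM in replicate 1, and Ccnd1, Tubb3 and Stmn2 dipped there.

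The change was set beside Polycomb marks at the promoters, from the filtered peaks of wild-type cells at days 6 and 0 (2 duplicates each). The chromatin libraries were sequenced in 2020 and the RNA of this contrast in 2019, so marks and RNA come from different runs, and the RNA changes of the 2 years differed in part. What part this has in the comparison was not tested. A promoter was taken as the 1 kb to each side of the gene start (RefSeq, GRCm38.p6) and as marked when a peak overlapped it in both duplicates. A start was found for 13558 of the 13593 tested genes. With an H3K27me3 peak on both days (1493 genes) the median log2 change was 1.74, and with a peak at day 0 only (1509 genes) it was 1.64. Without a peak on either day (10296 genes) it was -0.10, and the 260 genes marked at day 6 only had a median of -0.71. In the class marked at day 0 only, 71.8% were called higher and 13.3% lower, and in that of both days 63.8% and 20.3%. In the class marked at day 6 only, 25.4% were higher and 56.9% lower. Without a peak the shares were 34.1% and 41.9%, and over all tested genes 41.4% and 36.6%. For H3.3K27me3, the 1616 genes marked at day 0 only had a median of 1.91, the 217 marked on both days 0.94 and the 11672 unmarked -0.03. The 53 genes marked by H3.3K27me3 at day 6 only had a median of 0.11, with 47.2% higher and 35.8% lower. With a peak in either duplicate taken as enough, the H3K27me3 medians were 1.31 for both days, 0.80 for day 0 only and -0.36 for day 6 only, and the H3.3K27me3 medians 1.09 for day 0 only and 0.98 for both days. Of the tested genes, 866 were in the H3K27me3 class of both days and in the H3.3K27me3 class of day 0 only.

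Marked genes start low, with a median of 1.79 CPM at day 0 in the class of both days, and a low gene enters the test mainly by being high at day 6. Without the filter on low counts the medians of these H3K27me3 classes were 1.45 for both days and 1.46 for day 0 only. Peak numbers of the libraries were not matched, and what part that has in the classes was not tested. Among the 1027 genes over 16-fold higher with a known start, 36.5% had H3K27me3 peaks on both days, 26.7% at day 0 only and 36.1% none, against 1493, 1509 and 10296 of all 13558 tested genes with a start. Of the 236 genes over 16-fold lower, 13.1% gained a peak by day 6 (1.92% of all tested), and 72.9% had none on either day.

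Single genes with the largest changes show these classes. Igfbp5, Cyp26a1 and Nr2f2 had peaks of both marks at day 0 only, and the authors' deposited table of H3K27me3, with its sign turned to day 6 over day 0, gave log2 -1.06 over Igfbp5 and -1.04 over Cyp26a1. Hoxb9, Zfp703, Pdgfra, Foxc2, Dchs1, Lhx1, Dbx1 and Pou3f2 had H3K27me3 peaks on both days and H3.3K27me3 peaks at day 0 only. A peak on both days does not mean an equal signal: the authors' deposited table gave log2 -1.43 over Hoxb9, -0.94 over Pdgfra, -0.75 over Pou3f2 and -0.23 over Foxc2 (FDR 0.0789). Each value is of a whole region that reaches beyond the promoter, for Hoxb9 chr11:96160839-96415124 and for Foxc2 chr8:121108841-121247889. They are no measure of the promoter alone. Fgf4, Nphs1, Utf1, Tdgf1, Inhbb and Spry4, among the 12 largest losses, had H3K27me3 peaks at day 6 only and no H3.3K27me3 peak. The authors' deposited table gave them log2 differences of 0.81 (Tdgf1) to 1.43 (Inhbb). Pou5f1, Esrrb, Trh and Tcl1 fell with no peak of either mark. Cyp26b1 and Stra6 rose with none, although the authors' deposited table holds an H3K27me3 region over the start of Cyp26b1, with a log2 difference of -1.56. Otx2, Pou4f2 and Nanog, which fell, had the same classes as Lhx1 and Dbx1, which rose. Over the start of Nanog, in the region chr6:122700084-122887968, the authors' deposited table gave log2 -0.06 (FDR 0.33).

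**Figure D4:**
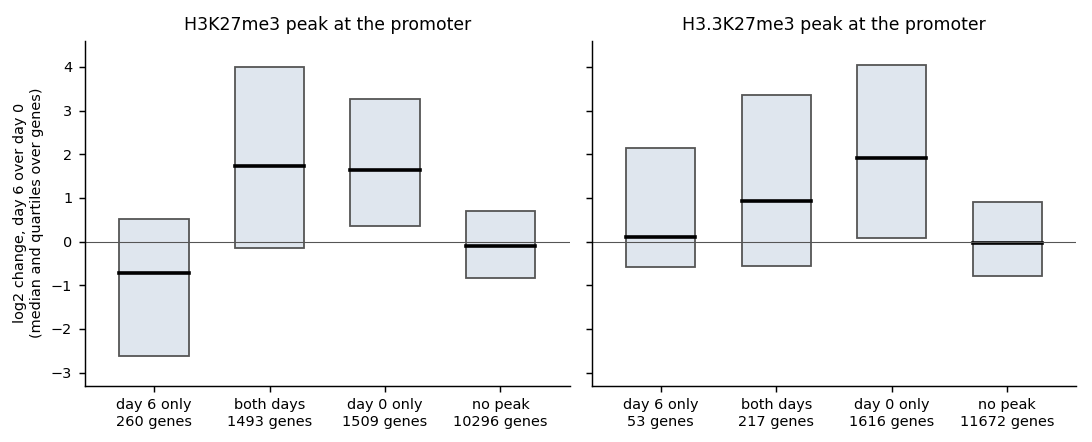
Log2 change, day 6 over day 0, of tested genes by when a peak of H3K27me3 (left) or H3.3K27me3 (right) overlapped the promoter, as median (bar) and quartiles (box) over genes. Genes with H3K27me3 peaks on both days and at day 0 only have medians of 1.74 and 1.64, those at day 6 only -0.71, and those without a peak lie near 0. With a peak in either duplicate the H3K27me3 medians for day 0 only and day 6 only were 0.80 and -0.36. The H3.3K27me3 class of day 6 only has 53 genes and a median of 0.11.

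The same contrast in the 2020 wild type was not the same in every group of genes. In 1 fit of all 17 RNA libraries, the day 6 over day 0 change was higher in 2019 than in 2020 for 3019 of 15343 genes (19.7%) and lower for 1507 (9.82%), by a test of the difference itself. Within 2020, 35.7% of genes were called higher at day 6 and 33.9% lower, 69.7% in all. Pluripotent genes had medians of -5.07 in 2019 and -5.05 in 2020. Mesenchyme markers had 5.54 in 2019 and -0.09 in 2020, and 13 of 15 differed. Their summed level was 1249 and 1471 CPM at day 6 and 73.3 and 68.4 CPM at day 0 in 2019, and 479 and 445 CPM at day 6 and 773 CPM at day 0 in 2020. The 2020 wild type thus had these transcripts at day 0, and the 4 day 0 libraries of the edited lines in 2020 did too, at 783 to 969 CPM. Epithelial junction genes had -0.90 in 2019 and 0.75 in 2020, and 15 of 20 had a lower change in 2019. Glycolysis genes fell less in 2019 (-1.34) than in 2020 (-2.60), with 12 of 19 different in that direction. The 2 series differ in year, in depth and in the share of reads outside genes, and their day 0 level in 2020 rests on 1 library, so these cannot be told apart.

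**Figure D5:**
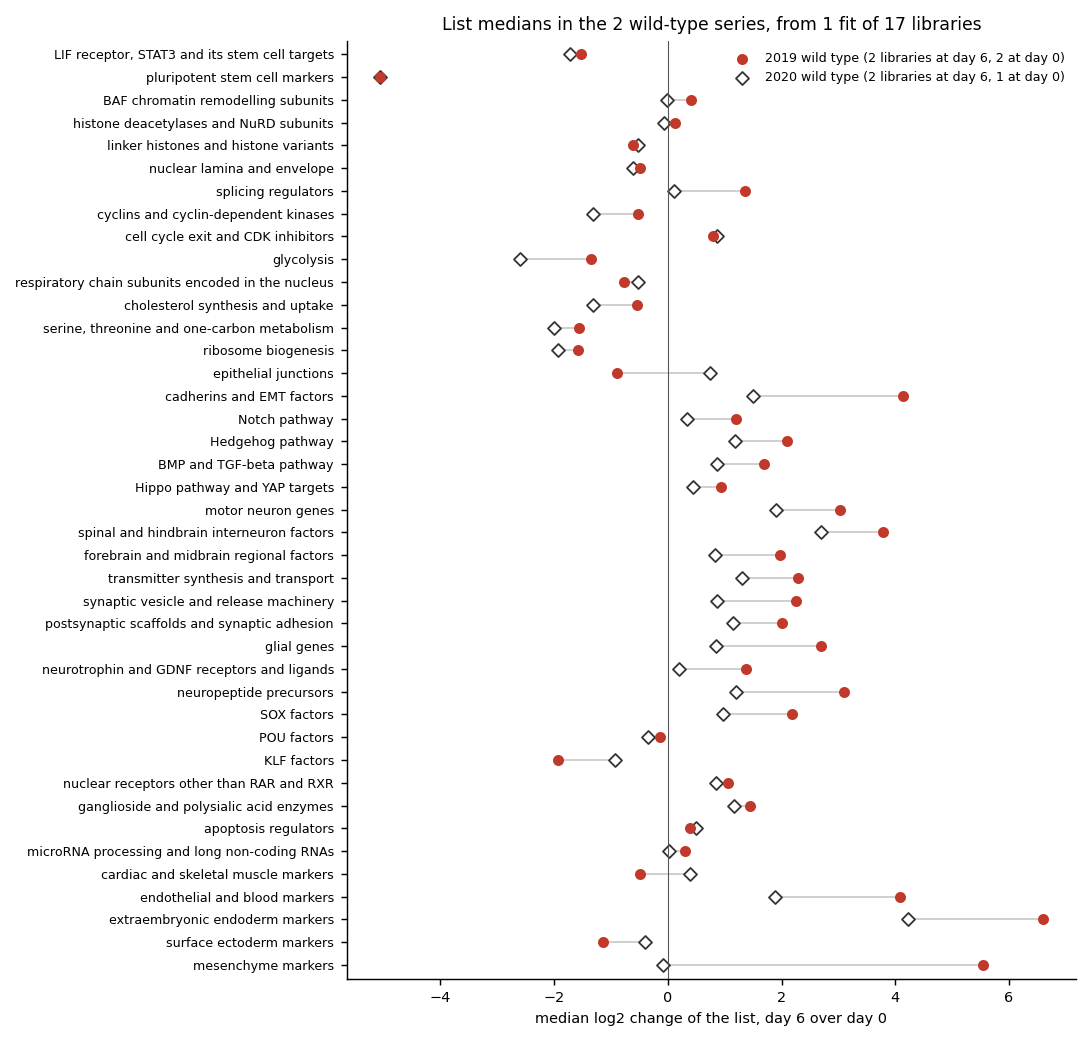
Median log2 change, day 6 over day 0, of 41 gene lists in the 2019 wild type (filled circles) and the 2020 wild type (open diamonds), both from 1 fit of 17 libraries. The pluripotent medians coincide at -5.07 and -5.05, and those of mesenchyme markers lie at 5.54 and -0.09.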

How the data were processed

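Poly(A) RNA of the wild-type cells was sequenced from directional libraries, per the labels' protocols. The authors deposited 1 table of raw read counts per gene and library, which the submitters' processing notes tie to STAR 2.5.2a, HTSeq and mm10; the strand setting and annotation used are not given in the sources used here, so antisense, overlapping and near-identical genes are uncertain. Rows naming no gene (43.08 to 50.82% of reads in the 4 libraries) were left out. The tables hold 24465 symbols, of which 19940 had a count in the 2019 libraries and 13593 passed edgeR's filterByExpr.

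The main test was edgeR 4.0.16's quasi-likelihood F-test (R 4.3.3) with TMM scaling on the 6 libraries of 2019 in 3 groups, with Benjamini-Hochberg adjustment over all tested genes and a threshold of 0.05. The difference between years was a contrast in 1 fit of all 17 RNA libraries in 9 groups. CPM are TMM-scaled. Standard errors are approximate and understate the error where a large change rests on few counts. Genes with no count in a group have bounds against a floor of 3 counts over the group, and those with 1 to 3 counts a ratio with an exact counting interval, which covers counting error only.

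Filtered peaks of H3K27me3 and H3.3K27me3 had been called with MACS2 per library, per the submitters' processing notes, and were used as positions. The authors' deposited H3K27me3 table, made with DiffBind per the same notes, gives a signal per library, a log2 fold and a p-value adjusted for false discovery for each region. Its fold is day 0 over day 6, and its sign was turned here.

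The members and lists were chosen with earlier results of these data known. Not every listed gene passed the filter. Tested were 16 of 27 forebrain and midbrain factors, 15 of 20 motor neuron genes and 16 of 23 glial genes. For neuropeptide precursors it was 13 of 22, and for muscle markers 21 of 30. A gene low at day 0 passes mainly by being high later, which favours gains in the shares of tested members. The rule for naming genes took the 12 with the largest log2 change in each direction. These were called genes with no overlap between the days. They had a mean of at least 50 CPM in the higher group and at least 10 counts in the lower group. It also took the 8 with the largest CPM difference. Up to 3 called members per list and direction were named, with members of the same family. Further genes were the 5 strongest with no count on one day and the 8 that differ most between years in each direction. Pou5f1, Nanog, Cyp26a1, Rarb and H3f3a were named as checks. Some genes the rule names are not reported here. Further list members, and the genes with a day 3 excursion, were picked after their values were seen. Fits were tested on simulated data. Alternatives were DESeq2 1.42.0, its size factors, other filters, fewer or more libraries, a 2-fold test, a replicate block, each replicate left out, and other promoter widths and peak rules.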

Additional observations from a re-analysis of the deposited data

Results flagged for a closer look

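The day 6 over day 0 change differed between the wild types of 2019 and 2020 by edgeR's test of the difference, being higher in 2019 for 3019 genes and lower for 1507. The 2020 day 0 level rests on 1 library, which is assumed to vary like the other groups. Differences are log2, 2019 minus 2020. Cdh11 differed by 9.72, with 273 and 292 CPM at day 6 and 0.477 and 0.0939 CPM at day 0 in 2019, and 35.3 and 26.2 CPM at day 6 and 22.5 CPM at day 0 in 2020. The collagen gene Col5a2 differed by 9.16, with 55 and 59 CPM at day 6 and 1.43 and 0.657 CPM at day 0 in 2019, and 9.68 and 10.3 CPM at day 6 and 96 CPM at day 0 in 2020. Both had few reads at day 0 in 2019 and more in the day 0 library of 2020. Col3a1 (9.20), the matrix protein Tnc (9.01), the BMP binder Bmper (8.91), Col12a1 (8.12), Col1a2 (7.99) and the hyaluronan receptor Cd44 (7.34) were the others. Bmper had no count at day 0 in 2019, so its fitted difference is no bound.

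In the other direction, Neat1, a nuclear non-coding RNA, differed by -4.06, with 55.8 and 39.4 CPM at day 6 and 181 and 161 CPM at day 0 in 2019, and 304 and 329 CPM at day 6 and 67.7 CPM at day 0 in 2020. Perp differed by -3.90, with 6.33 and 5.07 CPM at day 6 and 54.1 and 51 CPM at day 0 in 2019, and 68 and 76.5 CPM at day 6 and 44.2 CPM at day 0 in 2020. Both fell in 2019 and were higher at day 6 than at day 0 in 2020. Fbxo2 (-3.33), Plppr3 (-3.32), Grhl3 (-3.29) and Sdk2 (-2.90) followed. Tmem255a (-7.48) had no count in the 2020 day 0 library, so its fitted difference is no bound.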

How the results depend on the processing

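No gene named by the rule changed direction under any alternative. List medians, summed levels, day 3 shapes and the genes picked after their values were seen were not put through these alternatives. The counts of genes higher (5627) and lower (4971) at day 6 stayed within 1.5 times under every alternative but the test against a 2-fold change (3135 and 1860): DESeq2's Wald test gave 5020 and 4615, and leaving out 1 library gave 5265 to 5653 higher and 4506 to 5141 lower. The replicate numbers did not pair the samples (correlations of deviations of -0.00549, -0.0225 and 0.089), and the fit with the replicate block gave 5607 higher and 4937 lower. For the difference between years, leaving out 1 library gave 2301 to 2874 higher and 1124 to 1322 lower, and for the 2020 change 5036 to 5493 higher and 4839 to 5278 lower. Of the comparisons of named genes, 3651 kept their call and direction, 58 lost their call, 32 of them in the 2-fold test, and 1 gained one. Of the list counts 1119 stayed within 1.5 times and 57 did not.

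Medians by promoter mark moved with the peak rule; the cause was not tested. With 2.5 kb to each side, the H3K27me3 medians were -0.66 (day 6 only), 1.54 (both days) and 1.53 (day 0 only), and the H3.3K27me3 medians 0.86 (both days) and 1.78 (day 0 only). With a peak in either duplicate they were -0.36, 1.31, 0.80 and, without a peak, -0.16 for H3K27me3, and 0.98 (both days), 1.09 (day 0 only) and -0.10 (no peak) for H3.3K27me3. Without the filter on low counts they were -0.49, 1.45, 1.46 and -0.0405 for H3K27me3, and 0.89 (both days), 1.62 (day 0 only) and 0 (no peak) for H3.3K27me3. Depth limits genes with few counts at one end, whose fold changes are bounds or wide intervals.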
